A study of Homo sapiens with 6 samples.

Results

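Of 39 genes of the tricarboxylic acid (TCA) cycle, its refilling reactions, the malate-aspartate shuttle and glutamine uptake and use, 37 were measured by at least 1 probe set naming that gene alone, and all 37 passed the filter on low signals that left 13398 of 19775 genes. FH, which encodes fumarase, and GPT2, a mitochondrial alanine aminotransferase, were not analysed here. The rule used membership in these pathways and no measured value. The members were nevertheless chosen with earlier results of these data known, so shares of members called are no independent evidence. The genes were divided by step into the path from citrate to 2-oxoglutarate, the path from there to succinate, the path from succinate to oxaloacetate, a group of anaplerotic enzymes, malic enzymes and citrate export, the malate-aspartate shuttle, glutamine uptake, and the use of glutamate and glutamine. The cells were IMR90 human diploid lung fibroblasts, all carrying an ER:Ras fusion that 4-hydroxytamoxifen (4-OHT) switches on. Growing cells received no 4-OHT and no siRNA. In both other states 4-OHT was given to induce oncogene-induced senescence (OIS). Of these, Ctrl-KD cells received 100 nM 4-OHT for 6 days and a control siRNA against luciferase. RB-KD cells received the same 4-OHT treatment and a mixture of 3 siRNAs against RB1. In RB-KD OIS cells the authors reported a partial recovery of DNA replication. Transfection was made 4 days before RNA was taken, 2 days after 4-OHT was added, so that in both comparisons with growing cells the effects of 4-OHT and of transfection cannot be told apart. RNA came from 2 independent experiments, and each state had 2 biological replicates on Affymetrix U133 Plus 2.0 arrays, 6 arrays in all.

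The TCA cycle oxidizes acetyl groups in the mitochondrion and passes the electrons on as NADH and through succinate dehydrogenase. Its intermediates are drawn off for biosynthesis and are replaced from pyruvate or from glutamine, which enters through plasma membrane transporters and reaches the cycle as glutamate and then 2-oxoglutarate. The malate-aspartate shuttle uses paired cytosolic and mitochondrial enzymes with carriers of the inner membrane to move reducing equivalents into the mitochondrion. Many genes of amino acid transport and synthesis are targets of ATF4, a transcription factor that is made when amino acids are short or the endoplasmic reticulum is under stress.

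Signals are MAS5 intensities on a linear scale, and each gene was read from its brightest probe set, so a level can be compared between states but not between genes. Fold changes and adjusted p values come from limma on the log2 signals, with p values adjusted over all 13398 tested genes and a gene called at an adjusted p under 0.05. RB1 had a signal of 2627 and 2528 on the growing arrays, 2578 and 1915 on the Ctrl-KD arrays and 222 and 229 on the RB-KD arrays. RB-KD against Ctrl-KD cells, its log2 fold change was -3.30 ± 0.14 (SE, adjusted p = 2.73e-06). All 12 fibroblast markers lay above the array median on every array. Of the markers of other cell types, 2 of 6 epithelial (KRT8 and KRT18), 2 of 5 endothelial (PECAM1 and TEK) and 1 of 4 leukocyte markers (CSF1R) also lay above it on every array, while CDH1, KRT5, CDH5, KDR and CD14 lay under it throughout and the other 5 on some arrays. The summed fibroblast signal ran from 244343 to 245291 in growing cells, 163911 to 168083 in Ctrl-KD cells and 186200 to 226009 in RB-KD cells. The sum over 5 endothelial markers, led by TEK, was 1318 to 1445, 546 to 559 and 1429 to 1597 in the same states, that of 6 epithelial markers, led by KRT18, 3833 to 4083, 3148 to 3927 and 3519 to 3533, and that of 4 leukocyte markers 249 to 256, 226 to 257 and 194 to 251. Of 15 genes of S phase and mitosis, 15 were lower in Ctrl-KD than in growing cells, against 21.2% of all tested genes. In RB-KD against Ctrl-KD cells 9 of them (60%) were higher, against 12.6% of all. The part of these shifts in the changes below was not tested, and in such bulk RNA a change in the share of cells of a kind and a change of RNA per cell cannot be told apart. The smallest p that an exact permutation of 2 arrays against 2 can give is 0.333, so single genes rest on the spread that limma shares over genes.

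In Ctrl-KD cells all 7 members of the glutamine side of the pathway were lower than in growing cells. These were the 4 transporters that carry or exchange glutamine and the 3 genes of glutamate and glutamine use, led by ASNS (asparagine synthetase) at 10.2-fold and SLC7A5 at 3.53-fold lower, together with the mitochondrial phosphoenolpyruvate carboxykinase PCK2 at 2.6-fold. Genes of the cycle itself moved in both directions, and the largest change among them was that of IDH2, 1.74-fold lower. Among the members that rose, the aspartate-glutamate carrier SLC25A13 led at 2.08-fold. In all, 6 members were higher and 14 lower, while 17 did not pass the test. Among all tested genes 20.5% were called higher and 21.2% lower, against 16.2% and 37.8% of the members. The median log2 fold change was -0.22 over the members and -0.01 over all tested genes. The number of higher members fell to 3 without the first growing array, and that of lower members to 9 without the second. Centring each array on its median gave 9 higher and 10 lower members, with the calls over all genes at 3219 higher and 2367 lower, and ended the calls of GLUD1, SDHA, SUCLA2 and SUCLG1.

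In RB-KD cells the same 4 transporters, ASNS, PCK2 and the glutamine synthetase gene GLUL were again lower than in growing cells, but IDH2 was 2.07-fold higher. The other members that rose were SLC25A13, the cytosolic malate dehydrogenase MDH1 and DLST, a subunit of 2-oxoglutarate dehydrogenase. Altogether 4 members were higher and 13 lower, and 20 did not pass. The shares over all tested genes were 18.5% higher and 19% lower, against 10.8% and 35.1% of the members. The median was -0.18 over the members and -0.02 over all tested genes. Of the members, 9 were lower than in growing cells in both OIS states (PCK2, ME1, GOT1, SLC1A5, SLC38A1, SLC38A2, SLC7A5, GLUL and ASNS), which is 24.3% of the members against 12.9% of all tested genes, and both comparisons use the same growing arrays. The number of lower members fell to 7 without the second growing array. Centring each array on its median moved the median of all genes from -0.02 to 0.10 in this comparison and the calls over all genes from 2481 higher and 2552 lower to 3097 and 1984, and gave 5 higher and 10 lower members.

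Set directly against Ctrl-KD cells, RB-KD cells had 7 members higher and 6 lower. IDH2 showed the largest difference, 3.6-fold higher, followed by ASNS, ME3, PCK2, SLC38A1, SDHA and DLST. The lower members were SDHC, IDH1, SLC7A5, IDH3A, ACLY and DLD, with folds between 1.2 and 1.42. The remaining 24 did not pass. Over all tested genes 12.6% were called higher and 11.6% lower, against 18.9% and 16.2% of the members, and the medians were -0.05 and -0.02. Of the 7 higher members, 5 were lower in Ctrl-KD than in growing cells (IDH2, SDHA, PCK2, SLC38A1 and ASNS), which is 13.5% of the members against 7.6% of all tested genes. Of the 6 lower members, IDH3A and ACLY were higher there, 5.41% against 6.55%. Both comparisons share the Ctrl-KD arrays, so these counts are no independent evidence of a reversal. The lower calls of members became fewer in several alternatives, in which the calls over all tested genes fell as well. Without a trend in the prior variance the latter went from 1682 to 940 higher and from 1556 to 641 lower. Without the first RB-KD array limma called 0 members lower (5 at an unadjusted p under 0.05) and 4 higher, and without either growing array or the second Ctrl-KD array it called 3 lower.

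**Figure D1:**
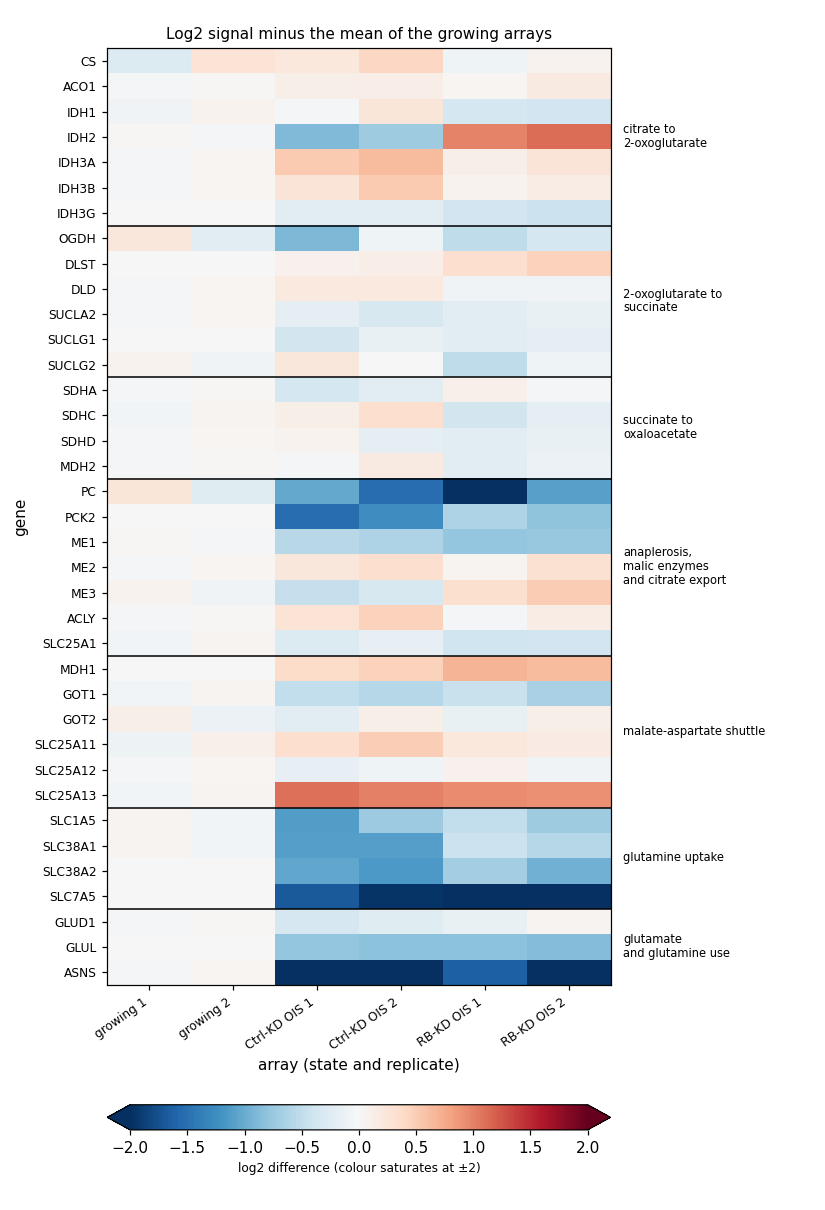
Log2 signal of each of the 37 genes on each of the 6 arrays minus the mean of the 2 growing arrays (colour, saturating at -2 and 2), with genes in rows grouped by step and arrays in columns. The glutamine uptake rows are blue on all 4 OIS arrays, and the IDH2 row is blue on the Ctrl-KD arrays and red on the RB-KD arrays.

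All 4 transporters of the glutamine uptake group were lower in both OIS states than in growing cells. SLC7A5 does not import glutamine but exchanges it from inside the cell for leucine and other large neutral amino acids. It gave 2467 and 2493 on the growing arrays, 773 and 639 on the Ctrl-KD arrays and 495 and 541 on the RB-KD arrays. Both OIS states lay far under the growing cells, and the RB-KD arrays lay under the Ctrl-KD arrays. The log2 fold change was -1.82 ± 0.13 (SE, adjusted p = 5.43e-06) in Ctrl-KD cells, -2.26 ± 0.13 (SE, adjusted p = 2.01e-06) in RB-KD cells and -0.44 ± 0.13 (SE, adjusted p = 0.0333) between them. The last of these calls ended without growing array 1, growing array 2, Ctrl-KD array 1, RB-KD array 1 or RB-KD array 2 (log2 fold change -0.51 to -0.31, adjusted p = 0.0606 to 0.147). SLC38A1 and SLC38A2 are sodium-coupled transporters of glutamine and other small neutral amino acids. SLC38A1 read 7152 and 6666 in growing, 3227 and 3217 in Ctrl-KD and 5121 and 4646 in RB-KD cells. No array of a state overlapped with another state, and RB-KD cells lay in between. Its log2 fold changes against growing cells were -1.10 ± 0.09 (SE, adjusted p = 1.14e-05) and -0.50 ± 0.09 (SE, adjusted p = 0.00173), and RB-KD cells were 1.51-fold above Ctrl-KD cells (adjusted p = 0.00139). A further bright probe set gave -1.15 (adjusted p = 3.02e-05), -0.46 (adjusted p = 0.00923) and 0.69 (adjusted p = 0.00228) in the same order, and a dimmer one gave -1.24 (adjusted p = 0.00844), -0.80 (adjusted p = 0.063) and 0.44 (adjusted p = 0.364).

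SLC38A2, which cells induce when amino acids are withdrawn, gave 36864 and 36379.6 in growing cells, 17728 and 16519.5 in Ctrl-KD cells and 22627 and 18733 in RB-KD cells. Its log2 fold change was -1.10 ± 0.10 (SE, adjusted p = 2.42e-05) and -0.83 ± 0.10 (SE, adjusted p = 0.00018) against growing cells. The RB-KD arrays lay above the Ctrl-KD arrays, but the difference of 0.27 (95% confidence interval 0.04 to 0.49) did not pass (adjusted p = 0.0806). The probes of this set can match other sequences as well. SLC1A5 (ASCT2), a sodium-dependent exchanger often named the main glutamine importer of proliferating cells, gave 675 and 629.6 in growing, 301 and 393 in Ctrl-KD and 462 and 398 in RB-KD cells. It was 1.89-fold lower in Ctrl-KD cells (adjusted p = 0.00226) and 1.52-fold lower in RB-KD cells (adjusted p = 0.022). The latter call ended without growing array 1, growing array 2 or RB-KD array 2 (log2 fold change -0.65 to -0.50, adjusted p = 0.0736 to 0.123). Between the OIS states SLC1A5 differed by 0.32 (95% confidence interval -0.07 to 0.71), which did not pass (adjusted p = 0.226).

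ASNS uses the amide nitrogen of glutamine to make asparagine and is a known target of ATF4. Its signal was 7029 and 7402 on the growing arrays, 649 and 778 on the Ctrl-KD arrays and 2324 and 1263 on the RB-KD arrays. The 3 states did not overlap, although the RB-KD arrays stood apart from each other. Against growing cells the log2 fold change was -3.34 ± 0.23 (SE, adjusted p = 5.56e-06) in Ctrl-KD cells and -2.07 ± 0.23 (SE, adjusted p = 0.000136) in RB-KD cells, and between the OIS states it was 1.27 ± 0.23 (SE, adjusted p = 0.00462), 2.41-fold higher in RB-KD cells. Leaving out RB-KD array 1 turned that difference into 0.83 (adjusted p = 0.00971), and leaving out array 2 into 1.71 (adjusted p = 0.000585). A second ASNS probe set read 1 to 32.2 on all arrays, under every array median, and averaging both ended the calls of ASNS.

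GLUL makes glutamine from glutamate and ammonia. It read 5401 and 5496 in growing cells, 3185 and 3097 in Ctrl-KD cells and 3085 and 2976 in RB-KD cells. The log2 fold change was -0.79 ± 0.08 (SE, adjusted p = 5.41e-05) in Ctrl-KD and -0.85 ± 0.08 (SE, adjusted p = 5.02e-05) in RB-KD cells, and the OIS states differed from each other by -0.05 (95% confidence interval -0.23 to 0.13, adjusted p = 0.703). Its other probe sets gave -0.89 (adjusted p = 0.00416) and -0.51 (adjusted p = 0.101) in Ctrl-KD cells and did not pass in RB-KD cells, at -0.37 (adjusted p = 0.165) and -0.31 (adjusted p = 0.326). Between the OIS states they had the opposite sign, at 0.53 (adjusted p = 0.0811) and 0.20 (adjusted p = 0.586). GLUD1, the mitochondrial glutamate dehydrogenase that turns glutamate into 2-oxoglutarate, read 4180.4 and 4331 in growing, 3356 and 3601 in Ctrl-KD and 3859 and 4405 in RB-KD cells. Only the Ctrl-KD arrays lay clear of the growing arrays, and GLUD1 was 1.22-fold lower there (adjusted p = 0.0339). This call ended without growing array 1, growing array 2 or Ctrl-KD array 1 (log2 fold change -0.32 to -0.24, adjusted p = 0.116 to 0.181). In RB-KD cells its change was -0.05 (adjusted p = 0.747). GLUD2, a near-identical copy, may share its probes, which was not tested.

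**Figure D2:**
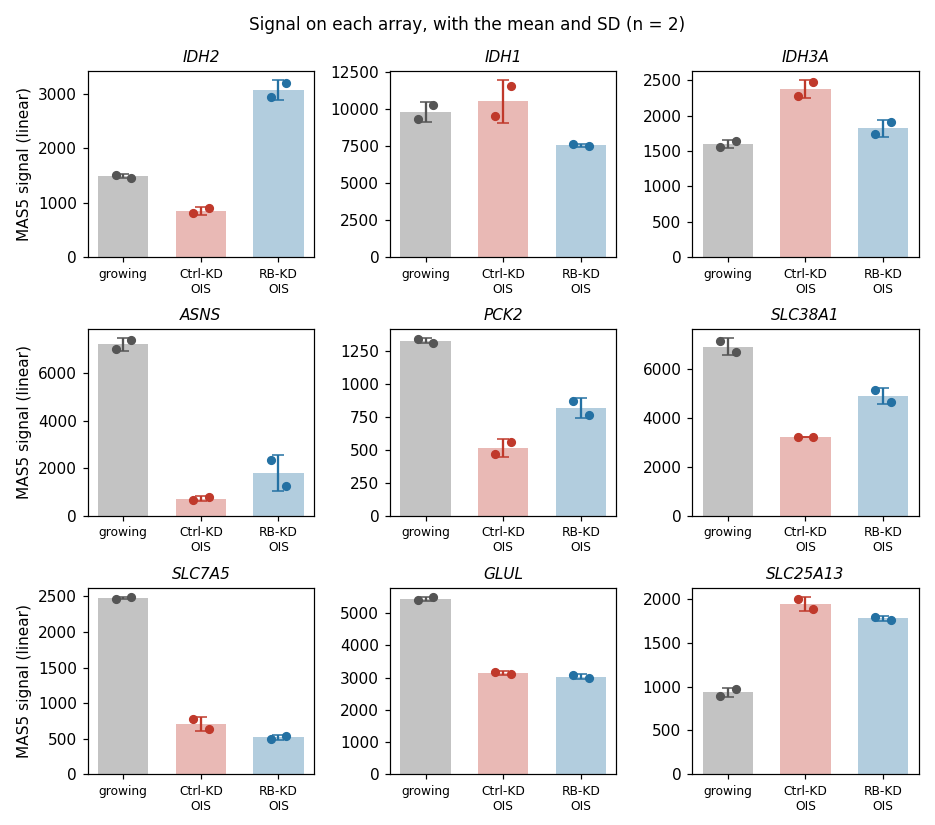
MAS5 signal (linear, from 0) of 9 genes on each array, with points for the 2 arrays of each state, bars for their mean and error bars for the SD (n = 2). IDH2 is lowest in Ctrl-KD and highest in RB-KD cells, whereas ASNS, PCK2, SLC38A1, SLC7A5 and GLUL are highest in growing cells.

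Promoter sequences were searched for sites of 3 kinds, because RB acts through E2F, ATF4 is held to drive ASNS, and ETS sites are frequent at housekeeping and mitochondrial genes. RefSeq (GRCh38.p14) gave 48 promoters for 35 of the members, and none was found for OGDH and SDHC. In the 250 bases before the start site, the amino acid response element TGATGNAA occurred on either strand in 4 of 48 promoters (8.33%), against 3.14% of all 35116 promoters. These were ASNS, GOT1, SLC25A11 and the most downstream of the 3 starts of SLC1A5. The E2F letters TTTCCCGC or TTTGGCGC occurred in 1 of 48 (2.08%), SLC25A11, against 1.93% of all promoters. The ETS letters CCGGAAGT occurred in 4 of 48 (8.33%), those of IDH3B, DLST, SDHD and MDH2, against 3.42% of all. None of these letters overlapped another of the searched sites. The sequences of ASNS (chr7:97872409-97872658), GOT1 (chr10:99430625-99430874) and SLC25A11 (chr17:4940047-4940296), all on the minus strand of GRCh38.p14, are shown from 5′ to 3′ since they hold the response element and, for SLC25A11, the E2F letters as well. Capitals mark the matched letters, which lie 68 to 61 bases before the start in ASNS, 198 to 191 in GOT1 (on the opposite strand), and 147 to 140 (E2F) and 71 to 64 (response element, on the opposite strand) in SLC25A11.
ASNS: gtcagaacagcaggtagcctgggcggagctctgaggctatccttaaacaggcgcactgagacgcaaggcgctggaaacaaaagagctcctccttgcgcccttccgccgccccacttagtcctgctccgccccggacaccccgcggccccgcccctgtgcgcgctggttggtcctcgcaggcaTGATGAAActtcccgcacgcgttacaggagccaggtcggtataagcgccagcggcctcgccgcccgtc
GOT1: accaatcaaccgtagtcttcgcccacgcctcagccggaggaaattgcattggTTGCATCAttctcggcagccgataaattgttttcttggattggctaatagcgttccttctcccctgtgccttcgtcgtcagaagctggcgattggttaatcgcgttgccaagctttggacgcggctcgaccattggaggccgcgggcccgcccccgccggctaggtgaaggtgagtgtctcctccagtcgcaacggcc
SLC25A11: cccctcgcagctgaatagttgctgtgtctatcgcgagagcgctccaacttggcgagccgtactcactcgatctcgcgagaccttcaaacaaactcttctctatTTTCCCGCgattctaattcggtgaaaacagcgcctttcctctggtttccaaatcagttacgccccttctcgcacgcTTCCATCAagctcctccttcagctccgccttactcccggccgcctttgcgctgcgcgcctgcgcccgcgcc
A match is a description of these letters and no measurement of binding. Of the 4 genes with the response element, 3 were lower in Ctrl-KD than in growing cells, ASNS 10.2-fold, SLC1A5 1.89-fold and GOT1 1.45-fold, and SLC25A11 was 1.33-fold higher. In this comparison 37.8% of the members and 21.2% of all tested genes were lower. The match of SLC1A5 lies only at the most downstream of its starts. Whether the element has a part in these changes was not tested.

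On the path from citrate to 2-oxoglutarate, IDH2 was the member that changed most. It encodes the mitochondrial NADP-dependent isocitrate dehydrogenase. Its signal was 1511 and 1461 on the growing arrays, 804 and 909 on the Ctrl-KD arrays and 2948 and 3212 on the RB-KD arrays. Ctrl-KD arrays were the lowest and RB-KD arrays the highest, with no overlap between any of the states. The log2 fold change was -0.80 ± 0.11 (SE, adjusted p = 0.000287) in Ctrl-KD and 1.05 ± 0.11 (SE, adjusted p = 6.94e-05) in RB-KD cells against growing cells, and 1.85 ± 0.11 (SE, adjusted p = 9.88e-06) between the OIS states. IDH2 was the only member called in opposite directions in the 2 OIS states against growing cells. Lower in Ctrl-KD and higher in RB-KD cells were 2.7% of the members and 0.955% of all tested genes. The reverse held for 0 members and 0.366% of all. The 3 calls of IDH2 held in the 15 alternatives other than single probe sets, with 1.43 to 1.94 between the OIS states. A second, dimmer IDH2 probe set gave -0.32 (adjusted p = 0.282), 0.69 (adjusted p = 0.0325) and 1.01 (adjusted p = 0.0105) in the same order.

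None of the other isocitrate dehydrogenase genes was called higher in RB-KD cells. IDH1, the cytosolic and peroxisomal NADP-dependent enzyme, read 9289.8 and 10231 in growing cells, 9486 and 11541 in Ctrl-KD cells and 7622 and 7479 in RB-KD cells. The growing and Ctrl-KD arrays overlapped, and both RB-KD arrays lay under them. RB-KD cells were 1.29-fold lower than growing cells (adjusted p = 0.0206) and 1.39-fold lower than Ctrl-KD cells (adjusted p = 0.011). The call against Ctrl-KD cells ended without RB-KD array 1 or RB-KD array 2 (log2 fold change -0.48 to -0.46, adjusted p = 0.0552 to 0.0569), and that against growing cells without growing array 2, RB-KD array 1 or RB-KD array 2 (log2 fold change -0.38 to -0.30, adjusted p = 0.0707 to 0.162). A second IDH1 probe set gave -0.42 (adjusted p = 0.00431) and -0.63 (adjusted p = 0.00121).

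IDH3A, IDH3B and IDH3G encode the subunits of the NAD-dependent enzyme of the cycle. The catalytic subunit IDH3A gave 1554 and 1635 in growing, 2281 and 2469 in Ctrl-KD and 1736 and 1907 in RB-KD cells. It rose 1.49-fold in Ctrl-KD cells (adjusted p = 0.00143) and lay 1.3-fold under that level in RB-KD cells (adjusted p = 0.0224), a call that ended without Ctrl-KD array 2 or RB-KD array 1 (log2 fold change -0.33 to -0.32, adjusted p = 0.0878 to 0.12). Its other probe sets did not pass in either comparison. A second one gave 0.32 (adjusted p = 0.0794) in Ctrl-KD against growing cells and -0.02 (adjusted p = 0.935) between the OIS states, and a dim one gave -0.49 (adjusted p = 0.35) and -0.62 (adjusted p = 0.313). IDH3B rose 1.31-fold in Ctrl-KD cells (adjusted p = 0.0165). That call ended without growing array 1, growing array 2 or Ctrl-KD array 2 (log2 fold change 0.25 to 0.42). The IDH3B probe set used can match other sequences. Its other sets gave -0.32 (adjusted p = 0.13) and -0.38 (adjusted p = 0.047) between the OIS states. They gave 0.55 (adjusted p = 0.00869) and 0.43 (adjusted p = 0.0152) in Ctrl-KD against growing cells. IDH3G did not pass there, at -0.22 (adjusted p = 0.0858), and was 1.32-fold lower in RB-KD than in growing cells (adjusted p = 0.00786), a call that ended without growing array 1 or growing array 2 (log2 fold change -0.42 to -0.40, adjusted p = 0.0576 to 0.0682). CS, the citrate synthase that opens the cycle, had 0.31 (adjusted p = 0.163), 0.00 (adjusted p = 0.988) and -0.32 (adjusted p = 0.204) in the 3 comparisons. Its growing arrays differed most among the members, with 3264 and 4784. ACO1, the cytosolic aconitase, lay within -0.01 and 0.12 in all 3 comparisons and was not called.

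**Figure D3:**
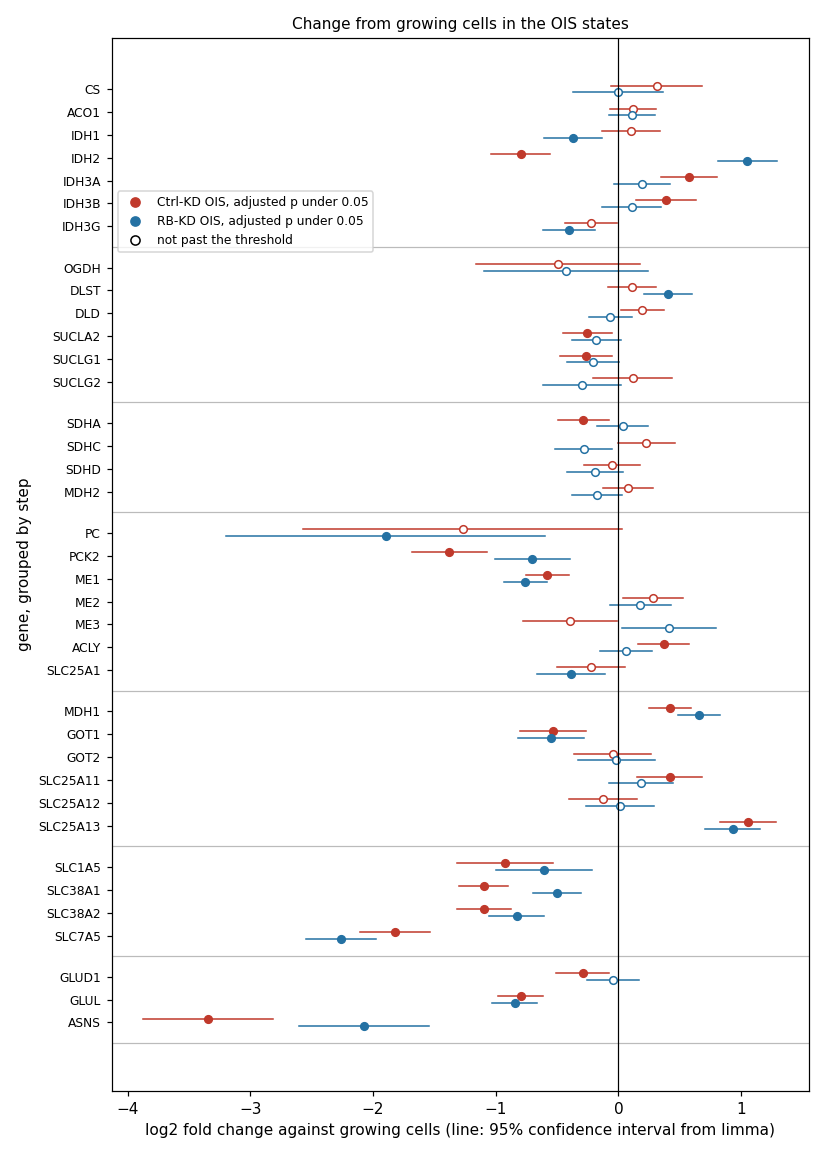
Log2 fold change against growing cells of each gene in Ctrl-KD (red) and RB-KD cells (blue), with lines for the 95% confidence interval and filled points for an adjusted p under 0.05. ASNS lies farthest to the left, and IDH2 is the gene with filled points on both sides of 0.

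Between 2-oxoglutarate and succinate changes were small. DLST, the succinyltransferase subunit of 2-oxoglutarate dehydrogenase, read 3234 and 3212 in growing, 3412 and 3539 in Ctrl-KD and 4079 and 4446 in RB-KD cells. It was 1.32-fold higher in RB-KD than in growing cells (adjusted p = 0.00526) and 1.23-fold higher than in Ctrl-KD cells (adjusted p = 0.0356). The latter call ended without any 1 of the 6 arrays (log2 fold change 0.23 to 0.36, adjusted p = 0.0555 to 0.158). DLD, the dihydrolipoamide dehydrogenase that this complex shares with pyruvate dehydrogenase, went the other way between the OIS states, with 7129.7 and 7148 in Ctrl-KD and 5966 and 5959.9 in RB-KD cells and 6068 and 6418 in growing cells. Its difference of -0.26 ± 0.08 (SE, adjusted p = 0.0378) ended without any 1 of the 6 arrays (log2 fold change -0.26, adjusted p = 0.065 to 0.116). OGDH, the third subunit, had wide intervals and was not called (-1.16 to 0.18 in Ctrl-KD cells). Of the succinyl-CoA ligase genes, SUCLA2 and SUCLG1 were 1.19-fold and 1.2-fold lower in Ctrl-KD than in growing cells (adjusted p = 0.0471 and 0.046). The call of SUCLA2 ended without growing array 1, growing array 2, Ctrl-KD array 2, RB-KD array 1 or RB-KD array 2 (log2 fold change -0.29 to -0.18, adjusted p = 0.0589 to 0.252), and that of SUCLG1 ended without growing array 1, growing array 2, Ctrl-KD array 1, RB-KD array 1 or RB-KD array 2 (log2 fold change -0.27 to -0.16, adjusted p = 0.0616 to 0.189). SUCLG2 was not called, with -0.41 (adjusted p = 0.0649) between the OIS states.

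The subunits of succinate dehydrogenase, which is also complex II of the respiratory chain, parted between the OIS states. SDHA, the flavoprotein, gave 3479.8 and 3577 in growing cells, 2751 and 3047 in Ctrl-KD cells and 3765 and 3474 in RB-KD cells. SDHC, a membrane anchor, gave 4156 and 4449 in growing, 4666 and 5422 in Ctrl-KD and 3333 and 3739 in RB-KD cells. For SDHA the Ctrl-KD arrays were the lowest, and for SDHC they were the highest. RB-KD cells were 1.25-fold higher in SDHA (adjusted p = 0.0336) and 1.42-fold lower in SDHC (adjusted p = 0.00731) than Ctrl-KD cells. The call of SDHA ended without growing array 1, growing array 2, Ctrl-KD array 1, RB-KD array 1 or RB-KD array 2 (log2 fold change 0.25 to 0.38, adjusted p = 0.0544 to 0.162), and that of SDHC ended without RB-KD array 1 (log2 fold change -0.43, adjusted p = 0.0593). SDHA was also 1.22-fold lower in Ctrl-KD than in growing cells (adjusted p = 0.0338), which ended without growing array 1, growing array 2 or Ctrl-KD array 1 (log2 fold change -0.30 to -0.21, adjusted p = 0.126 to 0.177). Of 5 further SDHC probe sets above the filter, those with the highest signals gave -0.48 (adjusted p = 0.0162), -0.81 (adjusted p = 0.034) and -0.60 (adjusted p = 0.00911) between the OIS states. The 2 dimmer ones did not pass, at -0.59 (adjusted p = 0.0651) and -0.30 (adjusted p = 0.425). In RB-KD against growing cells SDHC did not pass with the set used, at -0.28 (adjusted p = 0.0578). The further sets gave, in the same order, -0.36 (adjusted p = 0.0325), -0.24 (adjusted p = 0.451), -0.49 (adjusted p = 0.0122), -0.88 (adjusted p = 0.0073) and -0.08 (adjusted p = 0.832). The SDHA and SDHC probe sets used here can match other sequences. SDHD and MDH2, the mitochondrial malate dehydrogenase, were not called, with -0.13 (adjusted p = 0.387) and -0.25 (adjusted p = 0.079) between the OIS states.

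Among the genes that feed the cycle or draw on it, PCK2 changed most in Ctrl-KD against growing cells. It links the cycle to gluconeogenic and serine synthesis through phosphoenolpyruvate. It read 1341 and 1314 in growing cells, 464 and 561 in Ctrl-KD cells and 869.8 and 763 in RB-KD cells. RB-KD cells lay between the other states, with no overlap. The log2 fold change against growing cells was -1.38 ± 0.14 (SE, adjusted p = 4.29e-05) in Ctrl-KD and -0.70 ± 0.14 (SE, adjusted p = 0.00305) in RB-KD cells, and RB-KD cells were 1.6-fold above Ctrl-KD cells (adjusted p = 0.0069). This last call ended without RB-KD array 1 (log2 fold change 0.58, adjusted p = 0.0546). The pyruvate carboxylase PC, the classical anaplerotic enzyme, gave 173 and 125 in growing, 72.5 and 51.1 in Ctrl-KD and 22.5 and 69.1 in RB-KD cells. These lie close to the array medians of 46 to 51.8, and RB-KD array 1 lay under its median, so the size of its fall is uncertain. PC was called lower in RB-KD than in growing cells (adjusted p = 0.0279), which ended without growing array 1, growing array 2 or RB-KD array 1 (log2 fold change -2.13 to -1.09, adjusted p = 0.068 to 0.153), and its change in Ctrl-KD cells did not pass, at -1.27 (adjusted p = 0.11).

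The malic enzymes, which turn malate into pyruvate, moved apart. ME1, the cytosolic NADP-dependent form, gave 7552 and 7311 in growing, 5082 and 4861 in Ctrl-KD and 4367 and 4412 in RB-KD cells. It fell in both OIS states, with log2 fold changes of -0.58 ± 0.08 (SE, adjusted p = 0.00031) and -0.76 ± 0.08 (SE, adjusted p = 7.85e-05), and a second probe set gave -0.71 (adjusted p = 0.000319) and -0.91 (adjusted p = 9.62e-05). ME3, a mitochondrial NADP-dependent form, read 352 and 319 in growing cells, 243 and 268 in Ctrl-KD cells and 417 and 479 in RB-KD cells. Its OIS arrays lay on opposite sides of the growing arrays. Neither change from growing cells passed, at -0.39 (adjusted p = 0.0933) and 0.41 (adjusted p = 0.0857), but RB-KD cells were 1.75-fold above Ctrl-KD cells (adjusted p = 0.0085). That call ended without RB-KD array 2 (log2 fold change 0.71, adjusted p = 0.0539). ME2, the mitochondrial NAD-dependent form, was not called, at 0.28 (adjusted p = 0.0686) in Ctrl-KD cells.

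For citrate export, ACLY, which splits cytosolic citrate for lipid synthesis, rose 1.29-fold in Ctrl-KD cells (adjusted p = 0.011), with 12833 and 13294 in growing, 15817 and 17965 in Ctrl-KD and 12846 and 14444 in RB-KD cells. RB-KD cells lay 1.24-fold under Ctrl-KD cells (adjusted p = 0.0406). The rise ended without growing array 1 or growing array 2 (log2 fold change 0.34 to 0.39, adjusted p = 0.0565 to 0.0908), and the difference between the OIS states ended without growing array 1, growing array 2, Ctrl-KD array 2 or RB-KD array 1 (log2 fold change -0.31 to -0.22, adjusted p = 0.0861 to 0.216). Its other probe sets gave 0.24 (adjusted p = 0.1) and 0.29 (adjusted p = 0.0685) in Ctrl-KD against growing cells, and -0.37 (adjusted p = 0.0367) and -0.13 (adjusted p = 0.482) between the OIS states. The citrate carrier gene SLC25A1 was 1.31-fold lower in RB-KD than in growing cells (adjusted p = 0.0338), which ended without growing array 1, growing array 2, RB-KD array 1 or RB-KD array 2 (log2 fold change -0.45 to -0.33, adjusted p = 0.0899 to 0.213).

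The malate-aspartate shuttle held 3 of the 6 members that rose in Ctrl-KD cells. Of its own 6 genes 50% were called higher, against 20.5% of all tested genes. SLC25A13 (citrin), which exports aspartate from the mitochondrion in exchange for glutamate, gave 897 and 973 in growing cells, 2003 and 1884 in Ctrl-KD cells and 1798 and 1759.9 in RB-KD cells. Both OIS states lay above growing cells, and the difference between them did not pass (adjusted p = 0.411). Its log2 fold change was 1.06 ± 0.10 (SE, adjusted p = 3.49e-05) and 0.93 ± 0.10 (SE, adjusted p = 0.000105). A dimmer SLC25A13 probe set gave 0.94 (adjusted p = 0.0233) and 0.23 (adjusted p = 0.573), and another near the array median gave -0.09 (adjusted p = 0.935) and -0.01 (adjusted p = 0.993). MDH1 read 11031 and 11189.8 in growing, 14311 and 15358 in Ctrl-KD and 17726 and 17201 in RB-KD cells. It rose 1.33-fold and 1.57-fold (adjusted p = 0.00191 and 0.000163). The RB-KD arrays lay above the Ctrl-KD arrays, by 0.24 (95% confidence interval 0.06 to 0.41), just outside the threshold (adjusted p = 0.0508).

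GOT1, the cytosolic aspartate aminotransferase of the shuttle, fell where MDH1 rose, with 1219 and 1318 in growing, 904 and 850.3 in Ctrl-KD and 930 and 811 in RB-KD cells. Its log2 fold change was -0.53 ± 0.12 (SE, adjusted p = 0.00591) in Ctrl-KD and -0.55 ± 0.12 (SE, adjusted p = 0.00592) in RB-KD cells. Without growing array 2 both calls ended, at -0.48 (adjusted p = 0.0599) and -0.49 (adjusted p = 0.0605). GOT2, its mitochondrial counterpart, was not called, with -0.05 (adjusted p = 0.81) and -0.02 (adjusted p = 0.942). SLC25A11, the 2-oxoglutarate and malate carrier, rose 1.33-fold in Ctrl-KD cells (adjusted p = 0.0179). That call ended without growing array 1 or Ctrl-KD array 2 (log2 fold change 0.32 to 0.33). The other SLC25A11 probe set gave 0.56 (adjusted p = 0.00549) in Ctrl-KD cells. SLC25A12 (aralar), the other aspartate-glutamate carrier, was not called with the probe set used, at -0.12 (adjusted p = 0.459) in Ctrl-KD cells, but its other probe set gave 0.76 (adjusted p = 0.0012) and 0.61 (adjusted p = 0.00522) in the OIS states. No member of the shuttle was called between the OIS states, where 12.6% of all tested genes were higher and 11.6% lower.

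**Figure D4:**
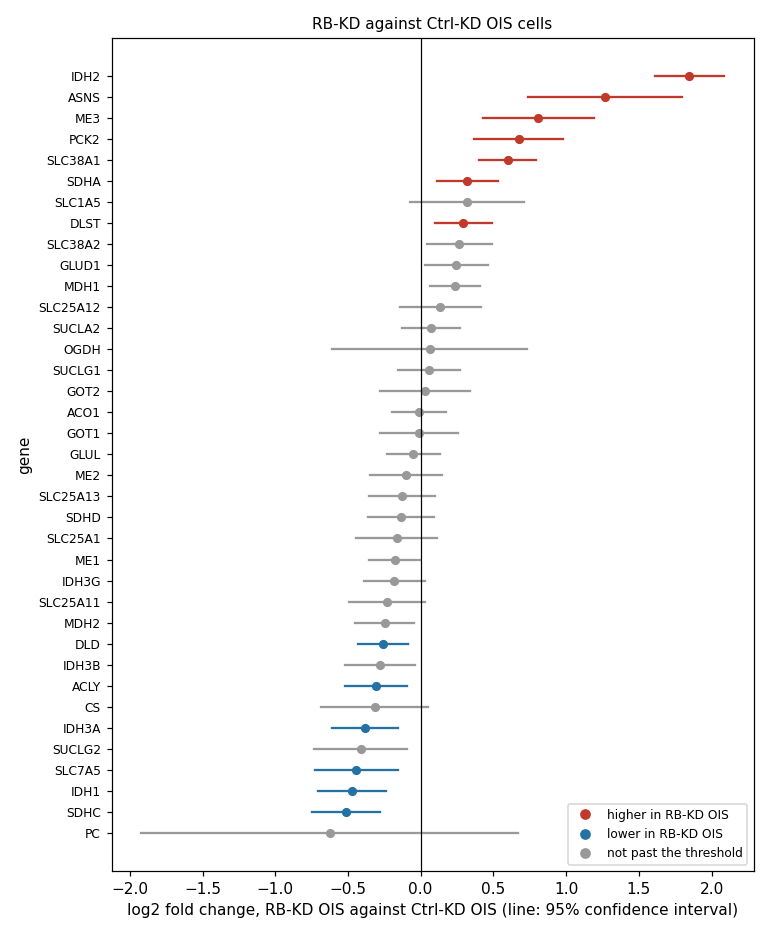
Log2 fold change of each gene in RB-KD against Ctrl-KD cells, in order of size, with lines for the 95% confidence interval, red and blue points for calls and grey points for an adjusted p of 0.05 or more. IDH2 lies at 1.85, above all other genes, and PC has the widest interval.

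By compartment, all 4 plasma membrane transporters were lower in both OIS states than in growing cells. Of 8 cytosolic members, 4 were lower and 2 higher in Ctrl-KD cells, and of 25 mitochondrial members 6 (24%) were lower and 4 (16%) higher, against 21.2% and 20.5% of all tested genes. In RB-KD cells 5 of 8 cytosolic members were lower and 1 higher, and 4 of 25 mitochondrial members (16%) were lower and 3 (12%) higher, against 19% and 18.5% of all. Of the 37 genes, 9 were not called in any comparison (CS, ACO1, OGDH, SUCLG2, SDHD, MDH2, ME2, GOT2 and SLC25A12). How many of all tested genes were called in none was not counted. In Ctrl-KD against growing, RB-KD against growing and RB-KD against Ctrl-KD cells, 7812, 8365 and 10160 of 13398 were not called. For 21 members, 35 other probe sets also passed the filter, and the sign was that of the probe set used for 25 of 35 in Ctrl-KD against growing cells, 30 in RB-KD against growing cells and 28 between the OIS states. Of the 50 calls of members, 26 had other probe sets above the filter, 44 in all, of which 23 passed in the same direction, 18 had that direction without passing and 3 had the opposite sign. Averaging all probe sets of a gene, dim ones included, was the only one of the other 15 alternatives that ended the calls of SLC25A13 in both OIS states, of IDH3A and ME1 in Ctrl-KD cells, of GLUL in RB-KD cells and of SLC38A1 in RB-KD cells against either other state.

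Other genes of the cycle, its carriers and assembly factors were also read. Of 20 tested genes outside the members, 4 were higher and 3 lower in Ctrl-KD than in growing cells, 7 and 4 in RB-KD cells, and 3 and 2 between the OIS states, with medians of 0.07, 0.03 and -0.02. In the same order these are 20% and 15%, 35% and 20%, and 15% and 10% of the list. Over all tested genes the shares were 20.5% and 21.2%, 18.5% and 19%, and 12.6% and 11.6%. The list was chosen with earlier results of these data known. NNT, the mitochondrial transhydrogenase that makes NADPH, gave 1518 and 1692 in growing, 663 and 772 in Ctrl-KD and 989.7 and 1052 in RB-KD cells. Its log2 fold change was -1.16 (adjusted p = 6.6e-05) and -0.65 (adjusted p = 0.00268) against growing cells and 0.51 (adjusted p = 0.0156) between the OIS states. MPC2, a subunit of the mitochondrial pyruvate carrier, read 4846 and 5105 in growing, 5623 and 5921 in Ctrl-KD and 9667 and 9074 in RB-KD cells. It was higher in RB-KD cells than in the other states, by 0.91 (adjusted p = 3.47e-05) against growing and 0.70 (adjusted p = 0.00045) against Ctrl-KD cells. SDHAF2, an assembly factor that attaches the flavin to SDHA, rose by 0.86 (adjusted p = 0.000216) in Ctrl-KD cells and differed by -0.36 (adjusted p = 0.0397) in RB-KD against Ctrl-KD cells. SLC25A4, a nucleotide carrier of the inner membrane, and SLC25A22, a mitochondrial glutamate carrier, differed between the OIS states by 0.59 (adjusted p = 0.00593) and -0.64 (adjusted p = 0.0402).

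Among 34 other genes of glutamine and amino acid use, 7 were higher and 11 lower in Ctrl-KD than in growing cells, 7 and 14 in RB-KD cells, and 10 and 6 between the OIS states, with medians of 0.01, -0.11 and 0.25. In the same order these are 20.6% and 32.4%, 20.6% and 41.2%, and 29.4% and 17.6% of the list. The shares over all tested genes were 20.5% and 21.2%, 18.5% and 19%, and 12.6% and 11.6%. This list too was chosen with earlier results of these data known. The cystine and glutamate exchanger SLC7A11 gave 9940.1 and 8963 in growing, 838 and 541 in Ctrl-KD and 2171 and 1729 in RB-KD cells. The serine synthesis gene PHGDH read 2282 and 2386 in growing, 294 and 280 in Ctrl-KD and 1037 and 838 in RB-KD cells. PSAT1, which takes nitrogen from glutamate in the same pathway, read 10986 and 11499 in growing, 1657 and 1957 in Ctrl-KD and 6260.1 and 4595 in RB-KD cells. In each of these genes the Ctrl-KD arrays were the lowest, the RB-KD arrays came next and the growing arrays were the highest, with no overlap. RB-KD cells exceeded Ctrl-KD cells by 1.52 (adjusted p = 0.000663), 1.70 (adjusted p = 5.25e-05) and 1.57 (adjusted p = 0.00012). SLC3A2, the heavy chain that pairs with SLC7A5 and SLC7A11, had a log2 fold change against growing cells of -1.23 (adjusted p = 6.98e-05) in Ctrl-KD and -0.94 (adjusted p = 0.000463) in RB-KD cells. PYCR1, a proline synthesis enzyme fed from glutamate, had -1.74 (adjusted p = 8.98e-06) and -1.47 (adjusted p = 3.49e-05). The neutral amino acid transporter SLC1A4 fell in Ctrl-KD cells alone among the comparisons with growing cells, at -2.08 (adjusted p = 1.49e-05), against -0.06 (adjusted p = 0.806) in RB-KD cells. ASS1, the argininosuccinate synthetase that uses aspartate, went the other way between the OIS states. It gave 407 and 418 in growing, 572 and 456 in Ctrl-KD and 105 and 87.8 in RB-KD cells, and RB-KD against Ctrl-KD cells it had a log2 fold change of -2.41 (adjusted p = 6.78e-05). PPAT, which uses glutamine in purine synthesis, was higher in RB-KD than in growing cells by 1.42 (adjusted p = 2.67e-05).

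Of 36 tested ATF4 and amino acid response genes outside the members, 7 also belong to the preceding list. In Ctrl-KD against growing cells 4 were higher and 19 lower (11.1% and 52.8%, against 20.5% and 21.2% of all tested genes). In RB-KD against growing cells 6 were higher and 14 lower (16.7% and 38.9%, against 18.5% and 19%). RB-KD cells had 16 of them higher and 2 lower than Ctrl-KD cells (44.4% and 5.56%), against 12.6% and 11.6% of all genes, with a median of 0.29. The list was chosen with earlier results of these data known, so these shares are no independent evidence. ATF4 itself, named here after its values were seen, gave 17917 and 17579 in growing, 7639 and 8114 in Ctrl-KD and 16779 and 13809 in RB-KD cells. It was lower in Ctrl-KD than in growing cells, at -1.17 (adjusted p = 1.77e-05), and higher in RB-KD than in Ctrl-KD cells, at 0.95 (adjusted p = 0.000262). NUPR1, a stress-induced nuclear protein, read 3317 and 3583 in growing, 59.5 and 118 in Ctrl-KD and 718 and 487 in RB-KD cells. Its log2 fold change between the OIS states was 2.82 (adjusted p = 0.000271). CHAC1, which degrades glutathione, and the transcription factor gene ATF3 were also higher in RB-KD than in Ctrl-KD cells, by 1.23 (adjusted p = 0.000147) and 1.18 (adjusted p = 0.00181). ATF3 was not lower in Ctrl-KD cells, with 397 and 307 in growing, 507 and 441 in Ctrl-KD and 1204 and 947 in RB-KD cells. CEBPB, also on the list, lay above growing cells in both OIS states, with 8571 and 8287, 18036 and 18473, and 19411 and 17455. Of the members, 7 were higher in RB-KD than in Ctrl-KD cells (IDH2, DLST, SDHA, PCK2, ME3, SLC38A1 and ASNS). The 6 lower ones included SLC7A5, at -0.44. SLC38A2, SLC1A5 and GOT1 were not called between the OIS states, at 0.27, 0.32 and -0.01. Whether these genes share a regulator was not tested.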

How the data were processed

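RNA of 6 cell samples in 3 states was hybridized to Affymetrix U133 Plus 2.0 arrays. The deposited intensities are MAS5 signals that the authors computed in Affymetrix Expression Console (versions not given in the sources used here). These linear values of 54613 probe sets come without detection calls, and the number of arrays limits the precision. Their trimmed mean is alike on all arrays (496.15 to 496.465), as after scaling to a common level. The log2 of the deposited signals was analysed, without any offset. Of the probe sets, 41091 pair with 1 gene in the platform annotation, 1801 with several and 11721 with none there. Each gene was represented by the probe set of highest mean log2 signal that pairs with it only (25 of the 37 members had more than 1), and was tested if it exceeded the median of its array in 2 or more of the 6 arrays.

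A mean per state was fitted over all 6 arrays in R 4.3.3 with limma 3.58.1, with an intensity-dependent prior variance (trend) and Benjamini-Hochberg adjustment. The fits were tested on simulated data. Other probe sets of a member were tested in a fit over 30139 probe sets. Arrays were taken as biological replicates, as their labels say. Replicates correlated with r of 0.971 to 0.974 across genes. The members and gene lists were chosen with earlier results of these data known. All members may be named, and from each list up to 6 called genes with the largest change in a comparison, not all of which are printed. As alternatives, arrays were quantile normalized or centred on their medians, 12.5 (percentile 25 of the signals) was added before the log, the filter was dropped or raised to percentile 70, probe sets of a gene were averaged, the trend was left off, the fit held only the 2 states compared or the replicate number as a block, and each array was omitted in turn. Promoters came from RefSeq (GRCh38.p14), with each listed start of a gene searched.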

Additional observations from a re-analysis of the deposited data

Results flagged for a closer look

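For 4 members the arrays of the OIS states lay on opposite sides of the growing arrays, and the OIS states differed from each other in limma. How many of all tested genes meet this rule was not counted. Arrays lying wholly above or under the growing arrays were common. Of 13398 genes, 4695 lay above and 4854 under in Ctrl-KD cells, and 4577 and 4861 in RB-KD cells. IDH2 and ME3 lay under the growing arrays in Ctrl-KD cells and above them in RB-KD cells, with log2 fold changes between RB-KD and Ctrl-KD cells of 1.85 (adjusted p = 9.88e-06) and 0.81 (adjusted p = 0.0085). DLD and SDHC did the reverse, with -0.26 (adjusted p = 0.0378) and -0.51 (adjusted p = 0.00731). In RB-KD against growing cells DLD differed by only -0.07 (adjusted p = 0.547). Its call between the OIS states was lost in 11 of 15 alternatives, that of SDHC in 3 and that of ME3 in 2. Of these genes only IDH2 also passed the test against growing cells in both OIS states.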

How the results depend on the processing

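The 50 calls of members were recomputed under 15 alternatives besides single other probe sets, and 16 of them passed under each one. These include the 3 calls of IDH2, the falls of PCK2, SLC7A5 and SLC38A2 in both OIS states and the rises of MDH1 in both. Without a trend in the prior variance, 3 members were higher in Ctrl-KD than in growing cells (against 6), and 3 were higher (against 7) and 0 lower (against 6) in RB-KD than in Ctrl-KD cells. The mean of all probe sets gave 3 higher and 0 lower between the OIS states. At an unadjusted p under 0.05 limma had 5 lower members without the trend and 6 with the mean. With only the 2 OIS states in the fit, 3 members were lower. Calls over all tested genes between the OIS states fell too, from 1682 higher and 1556 lower. They were 940 and 641 without the trend, 874 and 775 with the mean, and 1433 and 1228 with only the 2 OIS states. When each array was left out in turn, the members higher in Ctrl-KD than in growing cells numbered 3 to 7 and those lower 9 to 14. Against growing cells, RB-KD cells had 4 higher members in each case and 7 to 15 lower. Between the OIS states 4 to 7 were higher and 0 to 6 lower. Some signs depended on the probe set. In Ctrl-KD and RB-KD cells against growing cells, a dim probe set of IDH3A gave -0.49 and -1.11 and that of SLC25A13 near the array median -0.089 and -0.0115. SLC25A12 gave 0.76 with its other probe set, and SUCLG1 gave 0.42 with the mean of its probe sets, in Ctrl-KD cells. Arrays of the same replicate number did not deviate together from their state means (r of -0.0038 to 0.035 across genes). The replicate block gave 8 higher and 14 lower members in Ctrl-KD and 4 and 14 in RB-KD cells against growing cells, and 7 and 6 between the OIS states. Why results moved was not tested. Without detection calls, the level of a dim gene such as PC has no known background.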
